A study of Mus musculus with 20 samples.

Results

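In the fetal lung, 53 genes stood at a higher messenger RNA level in animals lacking the glucocorticoid receptor (GR, gene Nr3c1) from the mesenchyme at E18.5 (embryonic days after mating) than in controls of either E16.5 or E18.5. The set was selected on measured values. Each gene was represented by its brightest single-gene probe set, had a log2 value above 4 in at least 5 of 20 arrays, and had an E18.5 ablation mean at least 0.5 log2 units above the higher of the 2 control means. That excess over the higher control mean is called the overshoot here. Of 12393 genes with a single-gene probe set, 8068 passed the filter on dim values and 56 met the threshold (0.694% of those tested). Rspo2, Prrx1 and Nr1d2 were among the 56, with overshoots of 1.81, 1.10 and 0.69, and were left out by the rule. In the other direction, 35 genes lay at least 0.5 below both control means.

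Left lung lobes of fetal C57Bl6 mice were profiled as total RNA on Affymetrix Mouse430A_2 arrays, with 1 animal per array and 5 animals in each of 4 groups. The 2 control groups carried the floxed GR gene (GR flox) and were taken at E16.5 and E18.5. The 2 ablation groups, labelled GRCol1-Cre, carried in addition a Cre recombinase driven by the Col1a2 locus, which removes GR from mesenchymal cells, and were taken at the same stages. The comparison asks which genes in the late ablation lung are at a level that neither control stage reached. A GR flox animal without Cre controls for the floxed allele but not for the transgene, and the labels name no cell type other than mesenchyme as its site of action.

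GR is a ligand-activated transcription factor. Fetal glucocorticoid rises before birth, and the lung mesenchyme, through GR, is known to take part in the thinning of the septa and the slowing of cell division that precede air breathing.  Among the genes found here were the polymorphic chains of major histocompatibility complex (MHC) class II, which present peptides to CD4+ T cells, surface proteins best known from axons, matrix proteins, and secreted regulators of the Wnt and TGF-beta pathways.

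Nr3c1 read 8.78 ± 0.22 (SD, n = 5) in E16.5 controls against 7.07 ± 0.45 in E16.5 ablation animals, and 9.42 ± 0.22 against 7.80 ± 0.19 at E18.5. Sftpc, the surfactant protein of alveolar type II cells, read between 14.60 and 15.22 in all 20 arrays, whereas Nkx2-1, the transcription factor that defines lung epithelium, was dim (means 1.90 to 2.05). Array medians over all probe sets lay between 5.70 and 5.87, and correlations within a group between 0.989 and 0.998. By sex-specific transcripts, 1 of 5 E16.5 controls, 5 of 5 E16.5 ablation animals, 3 of 5 E18.5 controls and 2 of 5 E18.5 ablation animals were female. E18.5 control replicates 3 and 4 stood apart: the summed level (log2 of the sum of unlogged values) of oesophagus and squamous epithelium genes was 10.60 and 11.11 there against 5.84 to 5.89 in the other 3 E18.5 controls and 5.47 to 5.60 in the E18.5 ablation animals, and that of skeletal muscle genes was 11.95 and 9.81 against 8.44 to 8.82 and 7.64 to 8.19. In several lists E18.5 control replicate 3, unlike replicate 4, also lay closer to the E16.5 controls than the other E18.5 controls did. Its level of mitosis genes was 14.45, against 13.19 to 13.32 in the other E18.5 controls and 15.39 to 15.53 in E16.5 controls. For erythroid and embryonic globin genes it was 13.01, against 11.35 to 11.89 and 12.51 to 13.42. For chemokine genes it was 10.53, against 9.57 to 9.68 and 10.41 to 10.62. Among the E16.5 ablation animals, the oesophagus level was 6.67 and 6.78 in replicates 4 and 5 against 5.39 to 5.57 in the other 3, and the skeletal muscle level was 9.97 in replicate 4 against 7.28 to 7.91. E16.5 control replicate 4 had the highest skeletal muscle level of its group (9.03). The part of this in any result was not tested, and the main counts are therefore also given without E18.5 control replicates 3 and 4 and, for the E16.5 comparison, without E16.5 ablation replicates 4 and 5. The labels give no scan or extraction date. Each SD describes the spread between the 5 animals of a group. The p-values set group differences against the spread within groups of these 20 animals.

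A pair of DNA motifs is shown because the set includes MHC class II and Wnt pathway genes. Of the 53 genes, 43 had a promoter sequence in the RefSeq table (GRCm38.p6), and the 250 bases before the annotated start were searched on both strands. The MHC class II Y box, searched as CTGATTGG, a conserved element of class II promoters, was found in H2-Eb1 and H2-Aa, 62 to 55 and 51 to 44 bases before the start. The stretches below run 5′ to 3′ on the strand of the gene, with the motif in capitals; they lie at chr17:34305745-34305866 (plus strand) for H2-Eb1, chr17:34287824-34287934 (minus strand) for H2-Aa and chr2:70474759-70474885 (plus strand) for Sp5, a Wnt-responsive transcription factor gene with a TCF and LEF motif (CTTTGAT) 104 to 98 bases before its start.
H2-Eb1: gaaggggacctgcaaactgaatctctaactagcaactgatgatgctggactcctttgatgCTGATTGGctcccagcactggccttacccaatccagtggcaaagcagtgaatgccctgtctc
H2-Aa: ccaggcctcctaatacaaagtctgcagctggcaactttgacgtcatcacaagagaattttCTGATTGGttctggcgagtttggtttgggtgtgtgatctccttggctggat
Sp5: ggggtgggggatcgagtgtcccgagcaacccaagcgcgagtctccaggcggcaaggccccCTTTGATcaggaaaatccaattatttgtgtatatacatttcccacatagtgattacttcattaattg

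The Y box letters were also in the promoters of Aass, Cntn1 and Rgs5, 5 of 43 in all. They were in 6.37% of the tested genes with a promoter and in 4.43% of all genes with a promoter. The TCF and LEF letters were in 4 of 43 (Cntn1, Dclk1, H2-Eb1 and Sp5), beside 2.86% of tested genes. In H2-Eb1 the TCF and LEF letters lie 70 to 64 bases before the start, with 1 base between them and the Y box. The full glucocorticoid response element, searched as the half-sites AGAACA and TGTTCT with 3 bases between them, was in none of the 43 and in 0.0152% of tested genes. The interferon-stimulated element, searched as GAAA repeated after any pair of bases, was in 1 (Aif1), beside 3.15% of tested genes. The windows are short, so these counts describe the letters only.

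The overshoot had a median of 0.76 log2 units (1.70-fold) and ran from 0.51 to 2.14, with 16 genes at 1 or more. The higher control mean, against which it was measured, was that of E18.5 in 38 genes and that of E16.5 in 15. In 32 of the 53 genes (60.4%) the 2 control means lay within 0.5 of each other, beside 54.8% of all tested genes. Of the rest, 17 were at least 0.5 higher in E18.5 than in E16.5 controls and 4 at least 0.5 lower. In every one of them the threshold made the E18.5 ablation mean the highest of the 3 groups it compared, so the E18.5 values are a description, without a test.

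**Figure D1:**
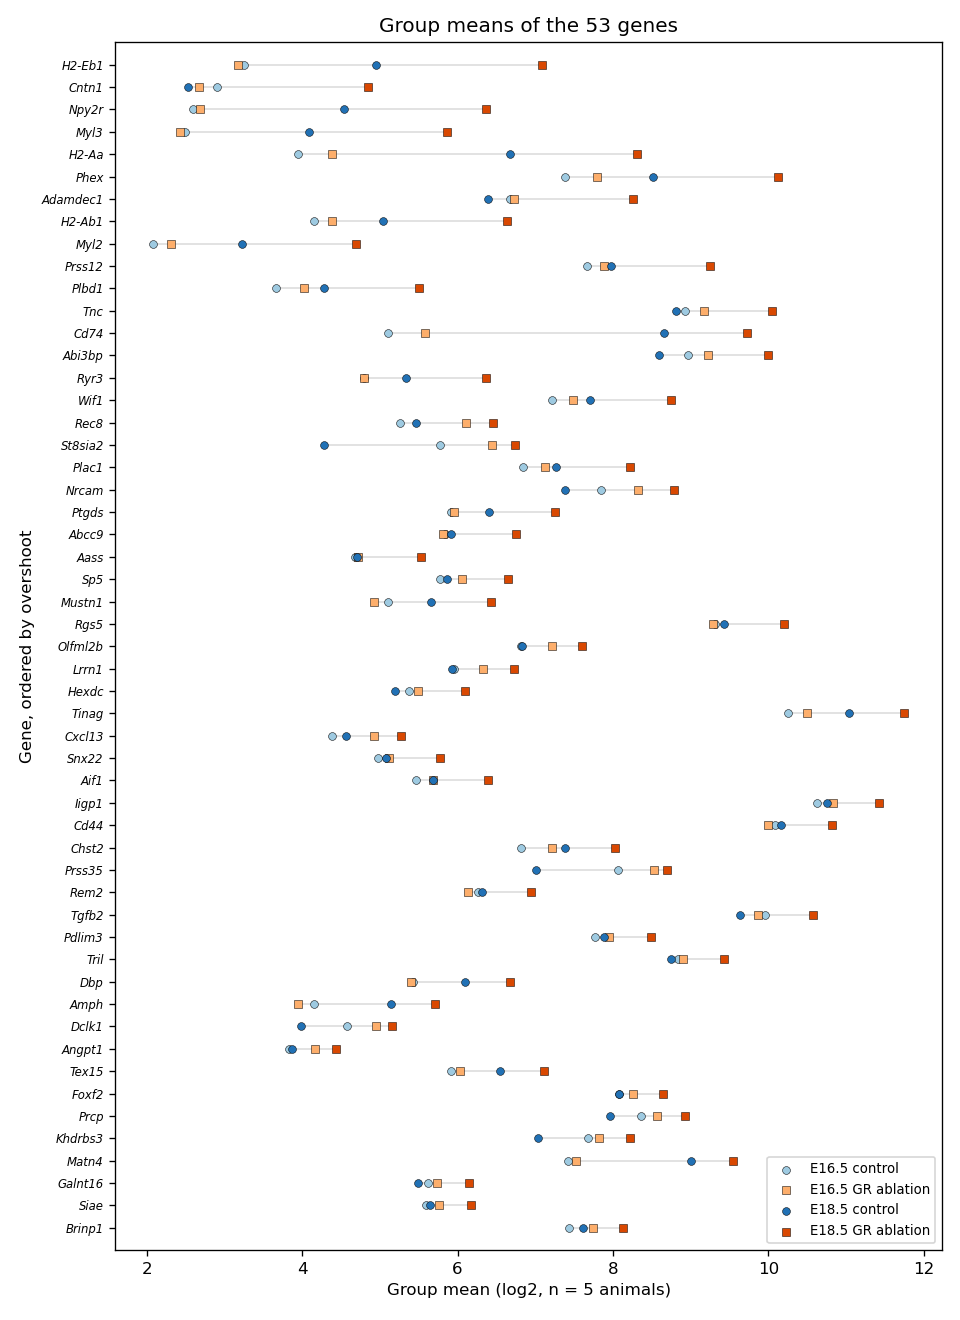
Group means (log2, n = 5 animals) of the 53 genes, ordered by overshoot from H2-Eb1 (2.14) at the top to Brinp1 (0.51) at the bottom. Circles are controls and squares are GR ablation animals, pale at E16.5 and dark at E18.5; the dark square is the rightmost mark in every row because the genes were selected that way.

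In 31 of the 53 genes all 5 E18.5 ablation arrays lay above all 10 control arrays, a separation that 0.669% of all tested genes had (54 of 8068); the rule used these arrays, so the share is not a result about the set. Without E18.5 control replicate 3 the count was 37, and without replicates 3 and 4 it was 38. Cntn1, Npy2r, Myl3 and Myl2 passed the filter on dim values through their E18.5 ablation arrays, with fewer than 5 of the other 15 arrays above 4, so for these 4 the filter itself favoured a high ablation group. Another 7 genes had 4 of the 5 ablation arrays above all controls, 8 had 3 and 3 had 2. In Adamdec1, Lrrn1, Cxcl13 and Pdlim3 no ablation array lay above every control. Animal by animal, the median excess of the 53 genes over the higher control mean was 0.77, 0.82, 0.69, 0.85 and 0.79 in the 5 E18.5 ablation animals. The genes were selected on this excess of these arrays over the controls, so it is not a result. The same measure was between -0.30 and -0.17 in the E16.5 controls and between -0.15 and 0.03 in the E18.5 controls. In the E16.5 ablation animals it was between -0.29 and 0.09. Its highest value among the controls, 0.03, belonged to E18.5 control replicate 3, in which 28 of the 53 genes were above the higher control mean.

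Leaving out E18.5 control replicates 3 and 4 together, 48 of the 53 genes still met the threshold; Rem2, Dbp, Amph, Tex15 and Brinp1, with overshoots of 0.49, 0.47, 0.39, 0.43 and 0.34 then, did not. Just inside the threshold stood Matn4 (0.531), Galnt16 (0.526), Siae (0.522) and Brinp1 (0.510). Just outside stood Bnipl (0.494), Ptpn5 (0.485), Pcdhb20 (0.482) and Sema4f (0.467). Each array of the 3 groups was also left out in turn, and 38 of the 53 genes met the threshold in all 15 cases.

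The MHC class II genes overshot by 1.06 to 2.14 log2 units. H2-Eb1, H2-Aa and H2-Ab1 encode the beta and alpha chains of the class II dimers and lie on chromosome 17; Cd74, on chromosome 18, encodes the invariant chain that escorts them. H2-Eb1 read 2.93, 3.86, 2.99, 3.31 and 3.13 in the E16.5 controls, 2.73, 3.12, 3.12, 3.10 and 3.80 in the E16.5 ablation animals, 4.64, 5.27, 4.84, 5.48 and 4.52 in the E18.5 controls and 6.06, 6.85, 7.51, 7.25 and 7.75 in the E18.5 ablation animals. The lowest E18.5 ablation animal (6.06) was above the highest control (5.48), and the overshoot was 2.14, or 4.39-fold. H2-Aa read 3.82, 4.0, 4.0, 4.11 and 3.81 in the E16.5 controls, 4.19, 4.09, 4.5, 4.53 and 4.62 in the E16.5 ablation animals, 6.95, 6.89, 6.16, 6.53 and 6.83 in the E18.5 controls and 7.21, 8.12, 9.05, 8.24 and 8.92 in the E18.5 ablation animals. The control mean was 3.95 at E16.5 and 6.67 at E18.5, and the E18.5 ablation mean of 8.31 ± 0.73 (SD, n = 5) lay 1.64 beyond that.

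H2-Ab1 read 4.48, 4.42, 4.18, 3.77 and 3.91 in the E16.5 controls, 4.29, 4.30, 4.51, 4.33 and 4.49 in the E16.5 ablation animals, 5.37, 5.45, 4.39, 5.45 and 4.52 in the E18.5 controls and 5.73, 6.19, 7.26, 6.72 and 7.26 in the E18.5 ablation animals. Here the lowest ablation animal (5.73) was close to the highest control (5.45), and the overshoot was 1.60. Cd74 read 4.41, 5.04, 4.19, 5.85 and 6.02 in the E16.5 controls, 3.27, 5.54, 6.26, 5.91 and 6.92 in the E16.5 ablation animals, 8.69, 8.75, 8.79, 8.58 and 8.48 in the E18.5 controls and 9.12, 9.48, 10.07, 9.88 and 10.06 in the E18.5 ablation animals. Of the 4 genes it had the widest gap between the control stages, from 5.10 ± 0.82 to 8.66 ± 0.13 (SD, n = 5), and the overshoot of 1.06 came on top of that. In all 4 genes E18.5 ablation replicate 1 read lowest of its group and replicate 2 next, while replicates 3 and 5 read highest, so the 4 genes shared an order across the 5 animals. The summed level of macrophage markers in the same 5 animals was 12.49, 12.63, 13.53, 12.17 and 13.30, also highest in replicates 3 and 5. This was not particular to macrophage markers. Replicates 3 and 5 were likewise highest for complement genes (12.37 and 12.41 against 11.22 to 11.56). The same held for club and ciliated cell genes (15.48 and 15.27) and glucocorticoid-induced genes (13.84 and 13.87). For mitosis genes these 2 animals were lowest (13.95 and 13.75 against 14.70 to 14.89). The part of any of these in the class II values was not tested.

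All 4 tested genes of the MHC class II list were in the set. The other 3 on the array were dim: Ciita, the coactivator of class II transcription, read 2.03 to 2.06 in the group means and H2-Oa 1.78 to 1.80. H2-DMa, part of the peptide-loading complex, also missed the filter, with means of 2.17, 2.41, 3.05 and 4.05 in E16.5 controls, E16.5 ablation, E18.5 controls and E18.5 ablation animals. The summed level of the class II list was 9.05 to 9.35 in E18.5 controls and 9.72 to 10.94 in E18.5 ablation animals.

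Of the 7 tested genes of MHC class I, which presents peptides to CD8+ T cells, none met the rule; at E18.5, where limma called 18.6% of all tested genes higher and 15.9% lower in ablation animals at a Benjamini-Hochberg adjusted p under 0.05, it called 0 of the 7 higher and 1 lower, Tapbp (log2 difference -0.41, SE 0.12, adjusted p = 0.013). Of 16 tested macrophage markers, Aif1 was in the set and none of the other 15 was called higher, while Lyz2 (-1.24, SE 0.32, limma adjusted p = 0.00586), Pf4 (-0.43, adjusted p = 0.00954) and F13a1 (-0.81, adjusted p = 0.0013) fell. The E18.5 differences of Adgre1, Csf1r and C1qa were 0.06, -0.12 and -0.01. The summed macrophage level was 13.09 to 13.93 in E18.5 controls and 12.17 to 13.53 in E18.5 ablation animals. Of 15 lymphocyte markers on the array 14 were dim. In whole-lobe RNA a change in cell number and a change of RNA per cell cannot be told apart.

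The remaining immune genes of the set were mixed. Plbd1, a lysosomal phospholipase-like protein of myeloid cells, was 3.66 ± 0.32 and 4.28 ± 0.46 in the E16.5 and E18.5 controls, 4.03 ± 0.15 in the E16.5 ablation animals and 5.50 ± 0.36 in the E18.5 ablation animals (SD, n = 5), an overshoot of 1.22. Aif1, an actin-binding protein of macrophages, read 5.82, 6.49, 7.06, 5.80 and 6.77 in the E18.5 ablation animals, against 5.28 to 5.94 in the E18.5 controls and 4.88 to 5.68 in the E16.5 controls. Replicates 2, 3 and 5 were above every control and replicates 1 and 4 were not. Cxcl13, a chemokine that attracts B cells, had an overshoot of 0.70, but one E18.5 control (replicate 3, 6.38) exceeded all 5 ablation animals (5.02 to 5.61). Without that control its overshoot was 0.89. Of the other 7 tested chemokine genes, 3 were called higher at E18.5, Ccl11 by 2.15 (SE 0.31, limma adjusted p = 4.95e-05), and 1 lower. The shares called over all tested genes were 18.6% and 15.9%.

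Adamdec1, a secreted metalloprotease-like protein, had the largest spread of the genes shown animal by animal. Adamdec1 read 6.54, 6.81, 6.55, 6.61 and 6.82 in the E16.5 controls, 6.57, 6.08, 6.94, 6.85 and 7.19 in the E16.5 ablation animals, 5.49, 5.50, 10.42, 4.89 and 5.64 in the E18.5 controls and 9.56, 7.56, 8.02, 7.76 and 8.41 in the E18.5 ablation animals. The value of 10.42 in E18.5 control replicate 3 was above all ablation animals, while the other 4 E18.5 controls (4.89 to 5.64) were below every other animal. Its overshoot of 1.60 was measured against the E16.5 controls and did not depend on that array. Iigp1, an interferon-inducible GTPase, and Tril, an accessory protein of Toll-like receptors, had overshoots of 0.67 and 0.60; their E18.5 ablation means were 11.42 ± 0.17 and 9.43 ± 0.09 (SD, n = 5), and all 5 animals were above all controls in both. A second bright probe set gave 0.66 for Iigp1 and 0.14 for Tril. Of 11 tested genes of the interferon response list, which did not hold Iigp1, 0 met the rule. At E18.5 limma called 1 of them higher (Ifit2, 0.43, SE 0.15, adjusted p = 0.0385). It called 1 lower (Irf8, -1.51, SE 0.17, adjusted p = 3.44e-06).

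**Figure D2:**
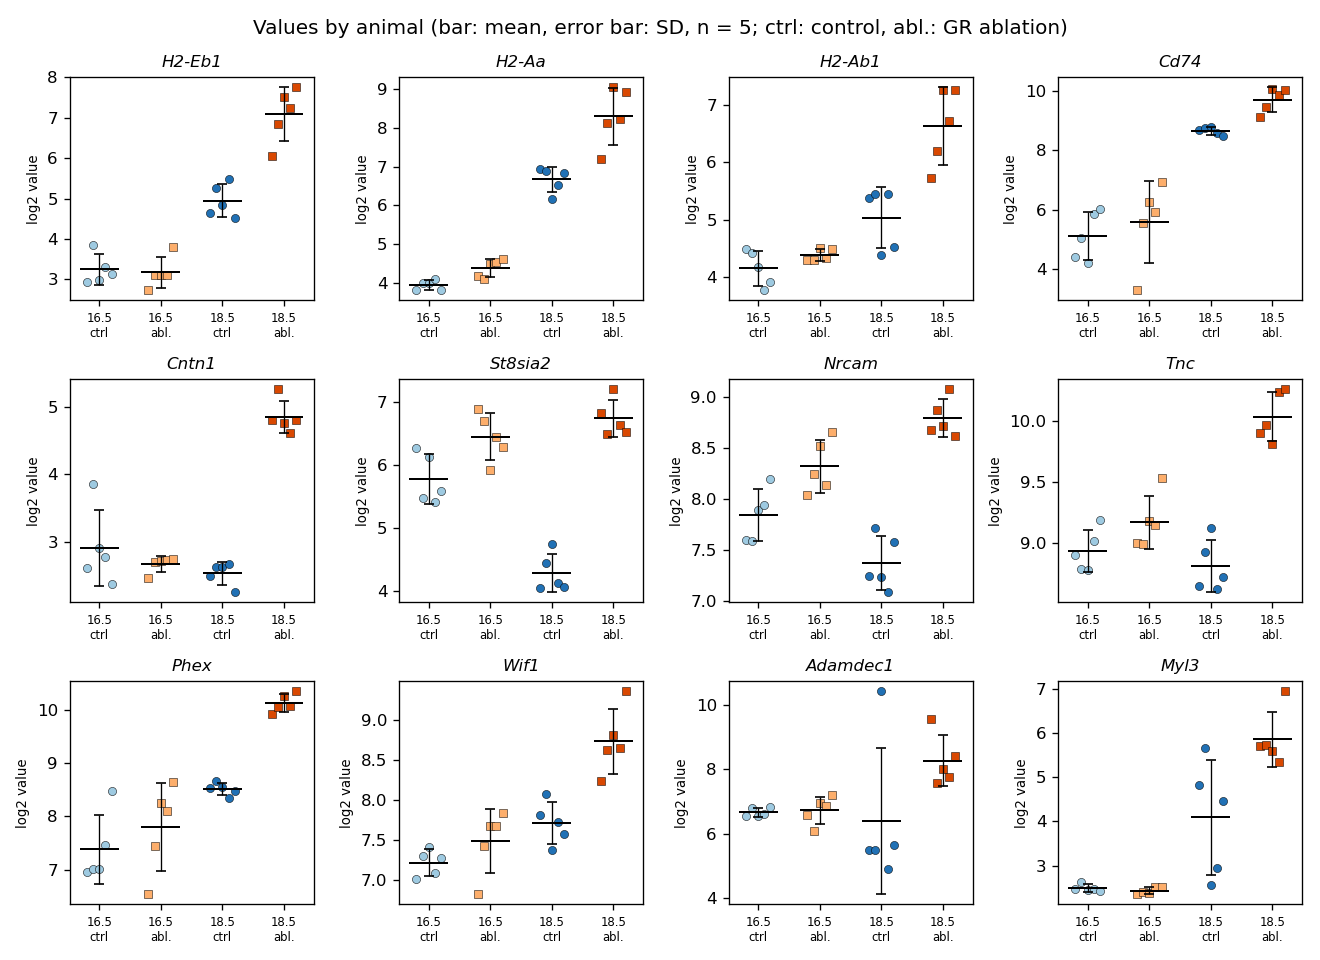
Log2 values by animal for some of the genes, with group means (bars) and SDs (n = 5); circles are controls and squares are GR ablation animals, at E16.5 and E18.5 from left to right. In H2-Eb1, H2-Aa, H2-Ab1, Cd74, Cntn1, St8sia2, Nrcam, Tnc, Phex and Wif1 all 5 E18.5 ablation animals lie above all controls. In St8sia2 and Nrcam they overlap the E16.5 ablation animals. In Adamdec1 1 E18.5 control at 10.42 lies above all 5 E18.5 ablation animals.

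The second group holds proteins best known from neurons, many of them on the cell surface, 10 genes with overshoots of 0.51 to 1.95. Of these, 6 separated completely, beside 31 of all 53, on arrays that the rule used. Cntn1 encodes contactin 1, an immunoglobulin-family adhesion protein of axons. Cntn1 read 2.61, 3.85, 2.91, 2.78 and 2.37 in the E16.5 controls, 2.46, 2.70, 2.71, 2.73 and 2.74 in the E16.5 ablation animals, 2.49, 2.63, 2.62, 2.67 and 2.25 in the E18.5 controls and 4.81, 5.26, 4.76, 4.61 and 4.81 in the E18.5 ablation animals. All 15 other arrays were dim for this gene, and all 5 E18.5 ablation animals were above them (overshoot 1.95); since the control level is dim, this is not given as a fold. A dimmer probe set of Cntn1, below 4 in all 20 arrays, had an overshoot of 0.56.

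St8sia2 encodes one of the sialyltransferases that build polysialic acid on the neural cell adhesion molecule. St8sia2 read 6.27, 5.48, 6.13, 5.41 and 5.59 in the E16.5 controls, 6.88, 6.70, 5.92, 6.45 and 6.28 in the E16.5 ablation animals, 4.04, 4.44, 4.75, 4.13 and 4.06 in the E18.5 controls and 6.83, 6.49, 7.20, 6.64 and 6.53 in the E18.5 ablation animals. Its controls went from 5.77 ± 0.40 to 4.28 ± 0.31 between the stages, and the E18.5 ablation animals (6.49 to 7.20) were all above the highest E16.5 control (6.27). A second bright probe set of St8sia2 gave an overshoot of 0.38 beside 0.96. Nrcam, an ankyrin-binding adhesion protein, ran the same way. Nrcam read 7.60, 7.59, 7.89, 7.94 and 8.20 in the E16.5 controls, 8.04, 8.24, 8.52, 8.14 and 8.65 in the E16.5 ablation animals, 7.25, 7.72, 7.24, 7.09 and 7.58 in the E18.5 controls and 8.67, 8.87, 8.71, 9.07 and 8.61 in the E18.5 ablation animals. Both genes had E16.5 ablation means (6.44 and 8.32) above both control means.

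Npy2r, a receptor for neuropeptide Y, was dim at E16.5 in both genotypes. Npy2r read 2.52, 2.51, 2.53, 2.47 and 2.98 in the E16.5 controls, 2.52, 2.48, 2.91, 2.56 and 2.99 in the E16.5 ablation animals, 4.21, 3.17, 6.22, 4.80 and 4.29 in the E18.5 controls and 5.98, 6.97, 6.05, 5.58 and 7.26 in the E18.5 ablation animals. Control replicate 3 (6.22) was above 3 of the 5 ablation animals, and the overshoot of 1.83 became 2.25 without it and 2.48 without replicates 3 and 4. Prss12, the protease neurotrypsin, read 7.98 ± 0.11 in the E18.5 controls and 9.25 ± 0.27 in the E18.5 ablation animals (SD, n = 5), and its lowest ablation animal (8.86) was above the highest control (8.16). The remaining 5 were Lrrn1 (0.75), Dclk1 (0.57), Amph (0.57), Khdrbs3 (0.54) and Brinp1 (0.51), with overshoots in parentheses. Of these, Khdrbs3, which encodes an RNA-binding splicing regulator, and Brinp1 separated completely, while Lrrn1 in E16.5 control replicate 5 (7.18) and Dclk1 in E18.5 control replicate 3 (5.38) overlapped the ablation animals. A second bright probe set of Dclk1 gave 0.49.

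The list of axon guidance and cell adhesion genes, chosen with earlier results of these data known, had 26 tested genes, 3 of them in the set. Of the other 23, limma called 4 higher and 4 lower at E18.5, beside 18.6% and 15.9% of all tested genes. Examples were Unc5c (1.18, SE 0.13, adjusted p = 3.44e-06) and Epha7 (1.14, SE 0.20, adjusted p = 0.000318), higher, and Ntn1 (-0.77, SE 0.25, adjusted p = 0.0224), lower. Of 6 tested genes of enteric and peripheral neurons, Cntn1 was in the set, and 2 of the other 5 fell: Stmn2 (-2.11, SE 0.30, adjusted p = 4.42e-05) and Gap43 (-1.52, SE 0.21, adjusted p = 3.25e-05), both markers of growing axons. Their summed level was 8.50 to 9.66 in E18.5 controls and 7.96 to 8.43 in E18.5 ablation animals.

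Of the 7 matrix genes, 6 separated without overlap, beside 31 of all 53. The rule used these arrays, so this is a description. Tnc encodes tenascin C, a glycoprotein of developing and injured matrix. Tnc read 8.90, 8.79, 8.78, 9.02 and 9.19 in the E16.5 controls, 9.0, 8.99, 9.18, 9.15 and 9.53 in the E16.5 ablation animals, 8.65, 8.93, 9.12, 8.62 and 8.72 in the E18.5 controls and 9.90, 9.97, 9.81, 10.24 and 10.26 in the E18.5 ablation animals. The overshoot was 1.10, and the controls of the 2 stages overlapped. Abi3bp, a matrix protein of mesenchymal tissue, read 9.81, 9.86, 10.02, 10.17 and 10.12 in the E18.5 ablation animals, against 8.40 to 9.42 over all controls. A further probe set of Abi3bp, bright in all 20 arrays, had an overshoot of 0.74 beside 1.04.

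Phex, a membrane endopeptidase known for phosphate handling in bone, had little spread at E18.5. Phex read 6.95, 7.02, 7.01, 7.46 and 8.47 in the E16.5 controls, 6.54, 7.45, 8.25, 8.09 and 8.65 in the E16.5 ablation animals, 8.53, 8.67, 8.54, 8.35 and 8.47 in the E18.5 controls and 9.91, 10.05, 10.26, 10.06 and 10.34 in the E18.5 ablation animals. The E18.5 controls spanned 8.35 to 8.67 and the ablation animals 9.91 to 10.34, an overshoot of 1.61 (3.05-fold). Its E16.5 values spread far more in both genotypes, from 6.54 to 8.65. Tinag, a basement membrane glycoprotein, reached 11.75 ± 0.07 against 11.04 ± 0.06 in E18.5 controls. Cd44, the hyaluronan receptor, read 10.85, 10.88, 10.85, 10.84 and 10.69 in the E18.5 ablation animals and 9.98 to 10.30 over all controls, an overshoot of 0.67; a second bright probe set gave 0.36. Matn4, a cartilage matrilin, went in controls from 7.42 ± 0.55 to 9.01 ± 0.19 and stood at 9.55 ± 0.14 in E18.5 ablation animals, an overshoot of 0.53 that fell to 0.48 without E18.5 control replicate 3. Olfml2b, an olfactomedin-domain matrix protein, had an overshoot of 0.76, with E18.5 control replicate 3 (7.51) above 1 ablation animal (7.35).

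Outside the set, matrix genes went both ways at E18.5, where limma called 18.6% of all tested genes higher and 15.9% lower. Of 18 tested collagen and interstitial matrix genes, Tnc was in the set; of the other 17, limma called 2 higher (Col16a1 and Fbln1, the latter by 1.02, SE 0.24, adjusted p = 0.00325) and 6 lower, with Col14a1 at -1.22 (SE 0.12, adjusted p = 6.17e-07) and fibronectin, Fn1, at -1.21 (SE 0.20, adjusted p = 0.000235). Of 14 proteoglycan and hyaluronan genes, Cd44 was in the set and the other 13 split into 5 higher and 2 lower. Versican, Vcan, was higher by 2.09 (SE 0.27, adjusted p = 1.47e-05) at E18.5 without passing both control stages by the threshold. Of 12 cartilage genes, Matn4 was in the set and 3 of the other 11 were called higher and 3 lower.

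Secreted regulators and transcription factors made up 5 genes, and a further factor, Dbp, grouped apart from them, is given at their end. Wif1 encodes a secreted inhibitor that binds Wnt ligands. Wif1 read 7.01, 7.30, 7.41, 7.08 and 7.28 in the E16.5 controls, 6.82, 7.43, 7.68, 7.67 and 7.84 in the E16.5 ablation animals, 7.81, 8.08, 7.38, 7.73 and 7.57 in the E18.5 controls and 8.24, 8.62, 8.81, 8.65 and 9.36 in the E18.5 ablation animals. Each of the 5 E18.5 ablation animals was above the highest control (8.08), the lowest being 8.24 in replicate 1, and the overshoot was 1.02. Sp5, a transcription factor gene activated by Wnt signalling, read 5.86 ± 0.12 in E18.5 controls and 6.65 ± 0.20 in E18.5 ablation animals (overshoot 0.79). Of 15 tested Wnt pathway genes, Wif1 was in the set. Of the other 14, 3 were called higher (Wnt7b, Wnt11 and Rspo2, one of the genes the rule left out) and 3 lower at E18.5. The shares called over all tested genes were 18.6% and 15.9%. Axin2, a common readout of the pathway, differed by 0.24 (SE 0.14, limma adjusted p = 0.199), Nkd1, an inhibitor, fell by 1.03 (SE 0.21, adjusted p = 0.00107), and 10 more genes of the list, Lef1 among them, did not pass the filter.

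Tgfb2, a TGF-beta ligand, read 9.78, 9.78, 9.93, 9.90 and 10.41 in the E16.5 controls, 9.57, 9.33, 10.09, 9.58 and 9.60 in the E18.5 controls and 10.73, 10.67, 10.31, 10.81 and 10.31 in the E18.5 ablation animals. Among the controls, E16.5 replicate 5 (10.41) was above the 2 lowest ablation animals (both 10.31), and the overshoot was 0.61. Both further probe sets of Tgfb2, bright in all arrays, gave 0.55 and 0.41. Of the other 15 tested BMP and TGF-beta genes, 5 were called higher and 3 lower at E18.5, beside 18.6% and 15.9% of all tested genes. The sister ligand Tgfb3 rose by 0.90 (SE 0.15, limma adjusted p = 0.000271) and Tgfb1 fell by 0.40 (SE 0.13, adjusted p = 0.02). Foxf2, a forkhead factor of gut and lung mesenchyme, was 8.08 ± 0.16 and 8.08 ± 0.10 in the E16.5 and E18.5 controls, 8.26 ± 0.12 in the E16.5 ablation animals and 8.64 ± 0.15 in the E18.5 ablation animals (SD, n = 5), with all 5 E18.5 ablation animals above all controls. Of 20 tested mesenchymal transcription factors it was the member of the set, and the other 19 included 7 called higher, Prrx1 among them, and 5 called lower. Angpt1, the ligand of the endothelial receptor Tie2, stood near the filter at 3.87 ± 0.20 and 4.44 ± 0.33 in E18.5 controls and ablation animals (overshoot 0.57). One clock-controlled factor, Dbp, had an overshoot of 0.58, which fell to 0.47 without E18.5 control replicates 3 and 4. Of the other 13 clock genes 1 was called higher (Nr1d2) and 7 lower, among them Per1, a direct GR target, with a difference of -2.50 (SE 0.27, adjusted p = 1.91e-06).

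Of the 8 contractile and pericyte genes, Mustn1 had all E18.5 ablation animals above all controls, and the other 7 did not. Of all 53 genes, 31 did. Myl3 and Myl2 encode myosin light chains of the ventricle. Myl3 read 2.48, 2.63, 2.44, 2.48 and 2.42 in the E16.5 controls, 2.35, 2.41, 2.38, 2.52 and 2.51 in the E16.5 ablation animals, 4.82, 5.66, 2.55, 2.95 and 4.46 in the E18.5 controls and 5.71, 5.72, 5.58, 5.35 and 6.94 in the E18.5 ablation animals. The overshoot of 1.78 fell to 1.39 without E18.5 control replicate 3 and to 0.88 without replicates 3 and 4, the 2 lowest of their group in this gene. Another probe set of Myl3 that passed the filter had an overshoot of 0.70. Myl2 read 2.09, 2.05, 2.16, 2.09 and 2.01 in the E16.5 controls, 2.32, 2.10, 2.05, 2.90 and 2.15 in the E16.5 ablation animals, 2.47, 2.87, 3.61, 4.51 and 2.66 in the E18.5 controls and 4.46, 4.57, 4.60, 4.18 and 5.62 in the E18.5 ablation animals. Its overshoot of 1.46 became 2.02 without those 2 arrays, because the same 2 arrays were the highest of the E18.5 controls in this gene. In both genes E18.5 ablation replicate 5 was highest. Of 14 tested cardiac genes these were the members of the set; of the other 12 limma called 0 higher and 1 lower at E18.5 (Ryr2, -1.32, SE 0.30, adjusted p = 0.00245). Nppa was dim. The summed cardiac level was 12.83 to 13.31 in E18.5 controls and 12.47 to 12.94 in E18.5 ablation animals, and 11.41 to 13.32 over the E16.5 controls.

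Rgs5, a regulator of G-protein signalling in pericytes, read 9.23, 9.24, 10.13, 9.44 and 9.12 in the E18.5 controls and 10.01, 9.97, 10.29, 10.17 and 10.55 in the E18.5 ablation animals. E18.5 control replicate 3 (10.13) overlapped the ablation animals and the other 4 did not. The 3 further probe sets of Rgs5 gave overshoots of 0.51, 0.55 and 0.46 beside 0.76. Abcc9, the regulatory subunit of the vascular ATP-sensitive potassium channel, read 6.94, 6.16, 6.48, 6.80 and 7.35 in the E18.5 ablation animals, with E18.5 control replicate 3 at 6.87 above 3 of them (overshoot 0.83). Its partner Kcnj8, the pore subunit, differed by 0.34 at E18.5 (SE 0.14, limma adjusted p = 0.0614). Of the other 8 tested pericyte genes 0 were called higher and 4 lower, beside 18.6% and 15.9% of all tested genes. The summed pericyte level was 13.78 to 14.04 in E18.5 controls and 13.52 to 13.76 in E18.5 ablation animals.

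Ryr3, a calcium release channel of smooth muscle and neurons, had an overshoot of 1.04, with 4 of 5 E18.5 ablation animals above all controls; without E18.5 control replicate 3 the overshoot was 0.83. Of the other 9 tested potassium and calcium channel genes, 1 was called higher and 2 lower at E18.5, beside 18.6% and 15.9% of all tested genes. The remaining 3 genes of this kind were Mustn1 (0.78), Rem2 (0.64) and Pdlim3 (0.60). Pdlim3, a Z-disc protein of muscle, read 8.79 in E18.5 control replicate 3 and 8.30 to 8.77 in the E18.5 ablation animals.

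**Figure D3:**
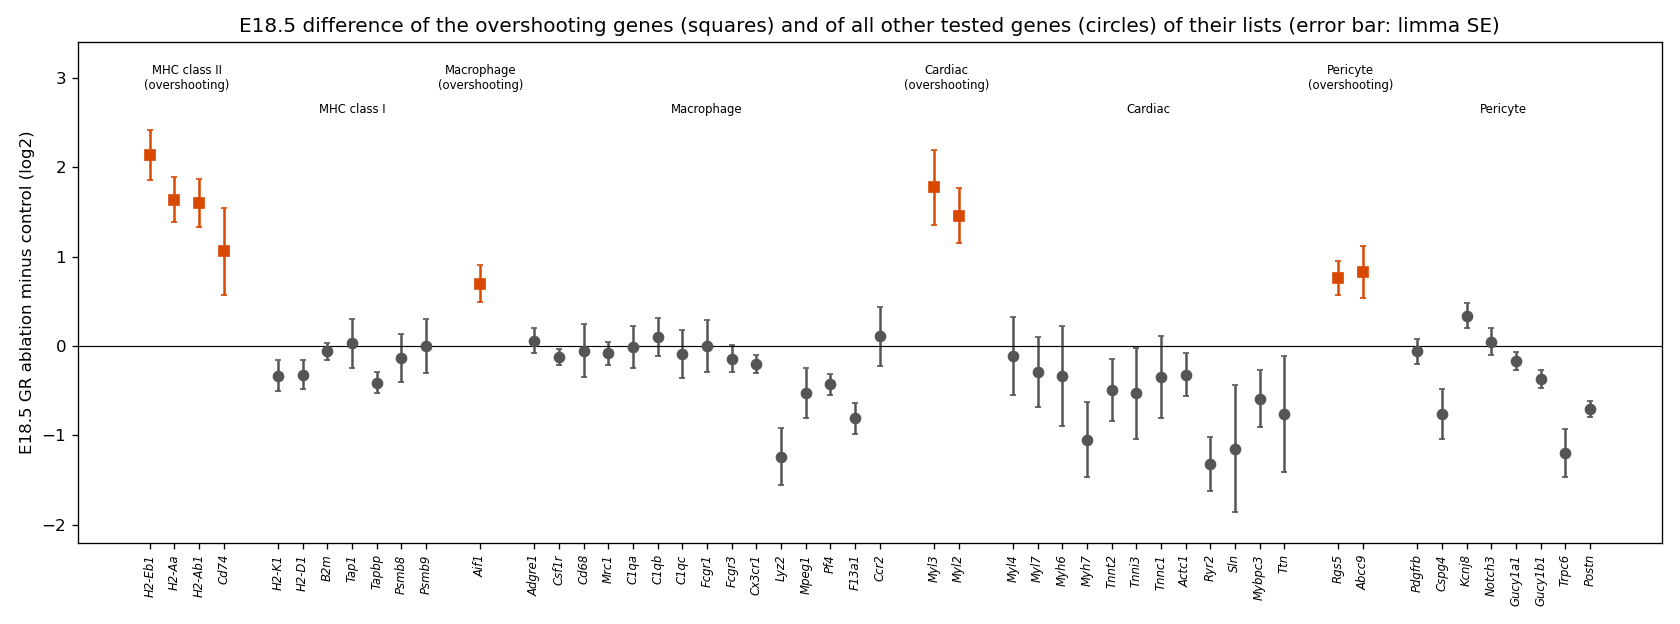
E18.5 GR ablation minus control (log2, limma SE) for the overshooting genes of 4 lists (squares) and for all other tested genes of the MHC class I, macrophage, cardiac and pericyte lists (circles). The squares lie between 0.70 and 2.14 because the genes were selected that way. The circles run from 0.34 (Kcnj8) down to -1.32 (Ryr2). They leave out every gene that met the rule, so the selection shaped both.

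Among the enzymes, 6 of 8 separated completely, beside 31 of all 53, on arrays that the rule used. Their overshoots were 0.52 to 0.84. Ptgds, which makes prostaglandin D2, reached 7.25 ± 0.27 against 6.41 ± 0.24 in E18.5 controls; Aass, of lysine breakdown, 5.53 ± 0.14 against 4.71 ± 0.09. Chst2, a sulfotransferase of N-acetylglucosamine, Galnt16, which starts O-linked sugar chains, Siae, a sialic acid esterase, and Hexdc, a hexosaminidase, all act on glycans; their overshoots were 0.65, 0.53, 0.52 and 0.72. Prcp, a lysosomal carboxypeptidase, and Prss35, a serine protease-like protein, had overshoots of 0.55 and 0.64. For Prcp a second bright probe set gave 0.48, and for Siae 2 gave 0.44 and 0.32. The germline and placental genes Rec8 (0.98), a meiotic cohesin subunit, Tex15 (0.57) and Plac1 (0.95) overlapped the controls in 1 or 2 ablation animals each; Snx22, a sorting nexin, had an overshoot of 0.70.

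Over the whole set, 29 further single-gene probe sets measured 19 of the genes. Of these, 15, for 11 genes, passed the same filter; all 15 had an E18.5 ablation mean above both control means, 6 of them by at least 0.5. The other 14 were dim. All 29 measured genes that the rule had selected, on arrays that it used, so these counts are a description and not a test.

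The E16.5 ablation arrays did not enter the 0.5 threshold, so their difference from E16.5 controls was tested; they did enter the choice of probe set and the filter on dim values, which used all 20 arrays. The E16.5 controls had entered the threshold too, which can favour genes with low E16.5 control values, and 4 of 5 of them were male while all 5 ablation animals were female. Of the 53 genes, 0 were called by limma at an adjusted p under 0.05 (smallest 0.146). Over all tested genes the fit called 4 higher (0.0496%) and 16 lower (0.198%); 3 of the 4 higher were Rspo2, Prrx1 and Nr1d2, the genes that the rule left out, so that 3 of the 56 past the threshold were called. Rspo2 was higher by 1.39 (SE 0.27, adjusted p = 0.0298), Prrx1 by 0.73 (SE 0.13, adjusted p = 0.0118) and Nr1d2 by 0.63 (SE 0.10, adjusted p = 0.00571). At an unadjusted p under 0.05, 8 of the 53 were higher (15.1%) and 0 lower, beside 2.28% and 2.13% of all tested genes.

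The 8 genes were Chst2, St8sia2, Nrcam, Sp5, Olfml2b, Prss35, Prcp and Brinp1; apart from St8sia2 and Nrcam they were named after their values were seen. Chst2 read 6.91, 6.92, 6.97, 6.57 and 6.68 in the E16.5 controls, 7.22, 7.09, 7.14, 7.36 and 7.25 in the E16.5 ablation animals, 7.51, 7.54, 7.05, 7.35 and 7.46 in the E18.5 controls and 8.13, 7.88, 7.96, 8.01 and 8.17 in the E18.5 ablation animals. It was the gene of the set in which all 5 E16.5 ablation animals (7.09 to 7.36) lay above all 5 E16.5 controls (6.57 to 6.97), which 0.347% of tested genes did. Its E16.5 difference was 0.40 (SE 0.10, limma adjusted p = 0.146), with adjusted p = 0.0435 when E18.5 control replicate 3 was left out of the fit, 0.0269 with array weights and 0.353 with sex as a covariate. St8sia2 was higher at E16.5 by 0.67 (SE 0.20, limma adjusted p = 0.473) and Nrcam by 0.47 (SE 0.15, limma adjusted p = 0.496), neither past the threshold. The differences of Sp5, Olfml2b, Prss35, Prcp and Brinp1 were 0.30, 0.41, 0.47, 0.21 and 0.30, with limma adjusted p-values of 0.879 or more.

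Across the 53 genes the median E16.5 difference was 0.21, beside 0.01 over all tested genes, and 42 (79.2%) had an ablation mean above the control mean, beside 56.1%. With sex as a covariate the median was 0.22 with 42 above 0, beside 0.02 and 54.6% over all tested genes. Where the E18.5 control mean was the higher one, 29 of 38 were above 0 (76.3%), with a median of 0.20, beside 45.6% and -0.01 over all tested genes with the same order of control means. Where the E16.5 control mean was the higher one, 13 of 15 were above 0 (86.7%), with a median of 0.21, beside 66.3% and 0.03. This division itself uses the E16.5 controls. Without E16.5 ablation replicates 4 and 5, the 2 with higher oesophagus marker levels, the median of the 53 was 0.10, with 36 above 0. Of the 53, 4 were then higher and 1 lower at an unadjusted p under 0.05, and 0 were called (smallest adjusted p = 0.764 by limma). Over all tested genes the median was then 0.02, with 56.9% above 0 and 2.23% higher at an unadjusted p under 0.05. An E16.5 ablation mean above both control means was found in 25 of the 53 (47.2%), beside 36.4% of tested genes, and 2 of them, Rec8 and St8sia2, were at least 0.5 above. These shares describe genes that were chosen with results known and carry no p-value.

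By gene group the E16.5 values ran as follows. In the class II genes the E16.5 differences were -0.07 (SE 0.28) in H2-Eb1, 0.44 (SE 0.25) in H2-Aa, 0.23 (SE 0.27) in H2-Ab1 and 0.48 (SE 0.49) in Cd74, all with a limma adjusted p of 1. Set against the E18.5 control means, their E16.5 ablation means were at -1.78, -2.28, -0.66 and -3.08, all below. In Cd74 the E16.5 ablation animals spread from 3.27 to 6.92. The contractile and pericyte genes had E16.5 differences of -0.19 to 0.23, and in Cntn1 both E16.5 groups were dim, with means of 2.90 in controls and 2.67 in ablation animals. The enzymes ran from 0.04 to 0.47, all above 0.

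**Figure D4:**
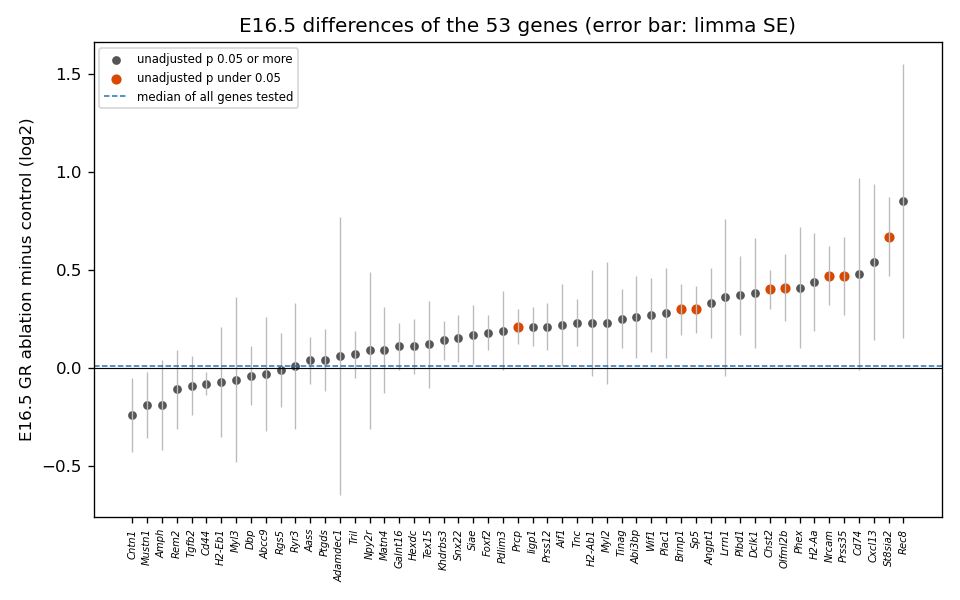
E16.5 GR ablation minus control (log2, limma SE, 5 animals per group) for the 53 genes in ascending order; the dashed line is the median of all tested genes (0.01) and orange marks are the 8 genes with an unadjusted p under 0.05. Most points, 42 of 53, lie above 0, from -0.24 (Cntn1) to 0.85 (Rec8), and 0 of them passed the adjusted threshold.

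Between the 2 stages the ablation means went up in every one of the 53 genes, from 0.17 in Prss35 to 4.14 in Cd74. The threshold had placed the E18.5 ablation mean at least 0.5 above the E16.5 control mean. A rise was therefore largely fixed by the selection and is not a result. In St8sia2 and Nrcam, where controls went down, the ablation animals differed between the stages by 0.29 and 0.47. Over the 53 genes limma called 46 higher in E18.5 ablation animals than in E18.5 controls; the rule used that contrast. The 7 that were not called were Cd74, Rec8, Lrrn1, Cxcl13, Amph, Tex15 and Matn4.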

How the data were processed

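The deposited table holds log2 values, 1 per probe set and array, for which the submitters' processing notes name GCRMA, a background correction and between-array scaling; no source used here gives its version. The values were used as deposited. Of 22690 probe sets, 20380 name 1 gene, in a platform annotation that can be old; genes took their brightest one, and those above 4 in at least 5 of 20 arrays were tested (8068). Group means of all 20 arrays were fitted with limma 3.58.1 (lmFit and eBayes, two-sided, Benjamini-Hochberg over all tested genes, called at an adjusted p under 0.05) in R 4.3.3, after the code was tested on simulated data. Errors of differences are limma SEs, of means SDs over 5 animals. The number of arrays limits the precision. Summed levels are log2 of the sum of a list's unlogged values.

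The threshold of the overshoot rule used the E16.5 control, E18.5 control and E18.5 ablation arrays; probe set choice and filter used all 20. The genes, and the 54 lists with 911 entries (815 matched), were chosen with earlier results of these data known. Named with values were the 15 largest overshoots and, of each list, up to 3 members with the largest overshoot; further genes of the set are given by overshoot and means, and genes outside it as examples chosen after their values were seen. Alternatives covered normalization, probe set choice, filter, threshold, array weights, sex, replicate block and leaving out arrays. Leaving out E18.5 control replicates 3 and 4 together, leaving out E16.5 ablation replicates 4 and 5 together, and the replicate block within the E16.5 arrays were chosen after seeing the data. Promoters and chromosomes are from RefSeq (GRCm38.p6).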

Additional observations from a re-analysis of the deposited data

Results flagged for a closer look

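Of 108 groups of 5 arrays examined (the 27 named genes in 4 groups), 10 held an array whose distance from its nearest neighbour was large for the range of the group; chance marks about 1 in 20 groups. In E18.5 control replicate 3, Adamdec1 read 10.42 (the other 4 controls 4.89 to 5.64), Plbd1 5.10 (3.96 to 4.18) and Abi3bp 9.06 (8.42 to 8.54), all above the rest. This array and replicate 4 had high summed levels of oesophagus and squamous epithelium genes, and the part of this in the 3 genes was not tested. In E16.5 control replicate 5, Npy2r read 2.98 (2.47 to 2.53), Aif1 4.88 (5.53 to 5.68) and Tgfb2 10.41 (9.78 to 9.93).

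Among the E18.5 ablation animals, replicate 5 read 6.94 in Myl3 (the others 5.35 to 5.72) and 10.69 in Cd44 (10.84 to 10.88). Among the E16.5 ablation animals, Cntn1 read 2.46 in replicate 1 (2.70 to 2.74) and Abcc9 4.94 in replicate 2 (5.98 to 6.09). Outside the gene-level data, 993 probe sets that name several genes or none passed the filter on dim values, and 5 of them lay at least 0.5 above both control means (2 with several genes, 3 with none).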

How the results depend on the processing

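The count of 53 genes was 54 after quantile normalization, 50 after median centring, 46 with the mean of all single-gene probe sets, 53 with group medians (44 of them the same genes) and 52 to 59 with 1 array left out. It was 28 at a threshold of 0.75 and 16 at 1. Of the 53, 15 fell below the threshold with at least 1 array left out, the largest of them at an overshoot of 0.75 (Lrrn1). With the mean of probe sets, overshoots were 0.80 in Phex (1.61 with the brightest), 0.67 in St8sia2 and 0.56 in Cd44; with group medians Dbp was at 0.75. The complete separation of 31 genes was unchanged in number by quantile normalization and median centring.

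At E16.5 the number of called genes of the set was 0 to 1 with 1 array left out and 1 with array weights (Chst2, 0.41). The E16.5 difference changed sign with sex as a covariate in H2-Eb1 (0.03), Myl3 (0.13), Ryr3 (-0.18), Abcc9 (0.06), Rgs5 (0.03) and Matn4 (-0.18), with array weights in Rgs5 (0.07), Tgfb2 (0.05) and Dbp (0.07), with the mean of probe sets in Dbp (0.22), and with quantile normalization and median centring in Ryr3 (-0.00 in each); the cause was not tested. With 1 array left out it crossed or reached 0 in Abcc9 (-0.11 to 0.19), Adamdec1 (-0.06 to 0.22), Cntn1 (-0.37 to 0.00), Dbp (-0.17 to 0.06), H2-Eb1 (-0.23 to 0.08), Matn4 (-0.06 to 0.30), Rgs5 (-0.10 to 0.13), Ryr3 (-0.18 to 0.25) and Tgfb2 (-0.16 to 0.02). With the replicate number as a block, 0 genes of the set were called (17 of all genes, beside 20 without it). Same-numbered arrays correlated at 0.59, 0.17, 0.33 and 0.60 at E16.5 for numbers 1, 2, 4 and 5, each best with its own number, and at -0.10 for number 3; at E18.5 they correlated between -0.43 and 0.21, and 0 of 5 best with their own. Not every pair was over 0.1, so the numbers were not taken as pairs. A block within the 10 E16.5 arrays called 0 genes of the set (smallest adjusted p = 0.107 by limma) and 4 of all genes. Without the block these arrays called 9 of all genes. With it 16 of the 53 were higher at an unadjusted p under 0.05, beside 4.77% of all tested genes. Without it 11 were higher, beside 2.62%. Values near the dim limit, as in Cntn1, Npy2r, Myl2 and Myl3 at E16.5, carry little signal over background.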
